A study of Mus musculus with 12 samples.

Results

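The genes described here encode the core machinery that copies nuclear DNA, measured in the testis of young mice as RNA and as ribosome footprints. They were chosen by a rule on symbols, with earlier results of these data known, as the subunits of the origin recognition complex (*Orc1* to *Orc6*), the helicase loaders and their inhibitor (*Cdc6*, *Cdt1* and *Gmnn*), the MCM proteins, *Cdc45* and the GINS complex, primase and the replicative DNA polymerases, the sliding clamp and its loader, replication protein A, and the enzymes that finish lagging strands. This rule found 46 genes among the 20620 genes of the deposited table, 18024 of which had at least 1 count. All 46 had counts in every library, and they were sorted into 9 roles. The testes came from C57BL/6 mice at postnatal day 16, either *Mael*+/- (heterozygous controls) or *Mael*-/-, which lack Maelstrom, an RNA-binding protein that germ cells need to make piRNAs and to keep LINE-1 retrotransposons repressed. Each extract of whole testis was divided, with one aliquot sequenced as total RNA and another as ribosome-protected fragments, and 3 biological replicates of each genotype gave 12 libraries in 4 groups. The *Mael* alleles are not described further, and the labels name no littermates, pooling of animals or sequencing batch, and the animals of both genotypes share strain, age and cycloheximide treatment of the tissue.

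DNA replication is licensed before S phase, when the origin recognition complex, *Cdc6* and *Cdt1* load the ring of *Mcm2* to *Mcm7* onto DNA, and *Gmnn* (geminin) restrains *Cdt1* so that no origin is licensed again in the same cycle. When an origin fires, *Cdc45* and GINS join the ring to form the active helicase, polymerase alpha with primase lays down primers, polymerases epsilon and delta extend the leading and lagging strands, and the clamp *Pcna*, loaded by the Rfc complex, holds them on the template. Replication protein A coats the exposed single strands, while *Fen1* and *Lig1* trim and seal Okazaki fragments. In the postnatal testis, spermatogonia divide by mitosis and copy their DNA a last time as preleptotene spermatocytes, after which meiotic prophase proceeds without S phase, and young Sertoli cells also divide for a period after birth. Many of these genes are known targets of E2F transcription factors, which act at the transition from G1 to S phase.

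Because many of the members are known E2F targets, the promoters were examined for 4 spellings of the E2F binding word. These were TTTCCCGC, TTTCGCGC, TTTGCCGC and TTTGGCGC, read on both strands, with overlapping words each counted. RefSeq promoters (GRCm38.p6, 250 bases before to 50 bases after the transcription start) were listed for 38 of the 46 members. Those not listed were *Gmnn*, *Mcm4*, *Gins1*, *Gins2*, *Gins4*, *Prim2*, *Pole* and *Rfc2*. Only the first start listed for each gene was read. Further starts are listed for *Orc2*, *Orc4*, *Mcm7*, *Pold2*, *Pole4*, *Fen1* and *Lig1* and were not searched. A word was present in 16 of the 38 member promoters (42.1%) and in 626 of all 27025 promoters read in this way (2.32%). The 22 words in member promoters began between 165 bases before and 39 bases after the start, and 15 of them lay within 50 bases of it. Of the 5 listed promoters of the MCM ring, 4 held a word, against 2 of the 6 promoters of the origin recognition complex. The shorter word CCAAT, the box bound by NF-Y, was present in 60.5% of member promoters and 37.9% of all promoters, and TTTGAA, the core of the cell cycle homology region, in 10.5% and 18.1%. These matches are descriptions of the letters only.

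Shown here are the promoters with most matches (*Mcm6*, with 3 words), those of *Mcm5* and *Mcm3*, the members of the MCM ring with the most RNA and the most footprints per kilobase, that of *Orc1*, and for contrast those of *Pcna* and *Rpa2*, which had the highest levels of all members and held no word. Capitals mark the E2F words, and where 2 words overlap the capitals run through both.
*Mcm6* (chr1:128359656-128359955, minus strand): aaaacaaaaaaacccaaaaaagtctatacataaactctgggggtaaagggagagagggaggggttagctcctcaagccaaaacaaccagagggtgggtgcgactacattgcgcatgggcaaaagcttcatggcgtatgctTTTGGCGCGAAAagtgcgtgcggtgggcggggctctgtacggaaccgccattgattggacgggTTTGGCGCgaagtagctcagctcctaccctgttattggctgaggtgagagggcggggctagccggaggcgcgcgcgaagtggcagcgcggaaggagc
*Mcm5* (chr8:75109259-75109558, plus strand): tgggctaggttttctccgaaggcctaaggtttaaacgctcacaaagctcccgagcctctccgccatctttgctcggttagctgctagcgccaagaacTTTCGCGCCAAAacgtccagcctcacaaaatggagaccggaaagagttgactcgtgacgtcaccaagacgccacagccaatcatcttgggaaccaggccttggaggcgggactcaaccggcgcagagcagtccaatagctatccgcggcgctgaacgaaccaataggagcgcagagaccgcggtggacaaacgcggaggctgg
*Mcm3* (chr1:20820263-20820562, minus strand): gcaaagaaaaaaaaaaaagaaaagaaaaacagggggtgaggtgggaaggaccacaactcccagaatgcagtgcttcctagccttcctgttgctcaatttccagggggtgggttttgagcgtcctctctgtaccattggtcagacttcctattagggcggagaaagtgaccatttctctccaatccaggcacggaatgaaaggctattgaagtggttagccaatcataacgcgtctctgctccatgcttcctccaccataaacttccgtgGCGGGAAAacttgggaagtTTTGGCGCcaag
*Orc1* (chr4:108579204-108579503, plus strand): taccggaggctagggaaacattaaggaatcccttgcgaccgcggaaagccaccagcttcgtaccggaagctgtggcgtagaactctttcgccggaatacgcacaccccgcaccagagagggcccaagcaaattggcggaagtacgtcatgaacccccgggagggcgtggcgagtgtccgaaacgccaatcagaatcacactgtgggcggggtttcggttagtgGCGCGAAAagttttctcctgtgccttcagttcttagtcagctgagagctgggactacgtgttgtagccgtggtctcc
*Pcna* (chr2:132253131-132253430, minus strand): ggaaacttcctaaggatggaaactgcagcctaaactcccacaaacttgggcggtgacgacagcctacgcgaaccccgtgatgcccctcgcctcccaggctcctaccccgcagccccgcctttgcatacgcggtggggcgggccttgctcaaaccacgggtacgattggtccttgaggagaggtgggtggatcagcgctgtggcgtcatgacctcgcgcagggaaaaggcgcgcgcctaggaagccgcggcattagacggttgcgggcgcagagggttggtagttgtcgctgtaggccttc
*Rpa2* (chr4:132768110-132768409, plus strand): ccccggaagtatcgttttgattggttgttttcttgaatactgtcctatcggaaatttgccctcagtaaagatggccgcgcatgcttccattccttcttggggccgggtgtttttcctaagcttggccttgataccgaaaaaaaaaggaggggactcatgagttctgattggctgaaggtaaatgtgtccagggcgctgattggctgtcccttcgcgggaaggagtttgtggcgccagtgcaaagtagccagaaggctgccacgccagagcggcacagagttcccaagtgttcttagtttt
In *Mcm6* and *Mcm5* a pair of words overlapped on opposite strands, whereas the words of *Mcm3* lay just downstream of the start. The median RNA level was 31.8 CPM (counts scaled to library size) per kilobase over the 16 members with a word and 31.9 over the 22 without, with ranges of 6.58 to 65.6 and 2.68 to 83.5.

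The libraries held between 13697267 and 27462358 gene counts for RNA and between 7609932 and 13233565 for footprints. Of these, the members took 0.378 to 0.418% in RNA and 0.381 to 0.412% in footprints, and the lowest count of any member in any library was 32 (*Pold4*). *Mael* itself had 5045, 4314 and 3800 RNA counts in the *Mael*+/- libraries and 1, 2 and 0 in the *Mael*-/- libraries, and 1294, 660 and 863 against 0, 0 and 7 footprint counts, as the labels state. Markers of spermatogonia, early meiotic prophase, Sertoli, Leydig and peritubular cells were present in every library. Of the 6 spermatid markers, *Tnp2* and *Prm1* had no count in any of the 12 libraries, and 2 others had counts in every library. Over all libraries *Spaca1* had 793 RNA and 155 footprint counts, *Tnp1* 82 and 31, *Acrv1* 10 and 2, and *Prm2* 0 and 1. Counts were scaled by library size and TMM factors, and a level compared between genes was divided by the length of the mRNA for RNA and of the coding sequence for footprints. Peritubular markers summed to 864 to 906 RNA CPM in *Mael*+/- and 970 to 1021.5 in *Mael*-/-, while their footprints overlapped. The pachytene markers tested between genotypes were all lower in *Mael*-/-, 8 in RNA and 6 in footprints (median log2 differences -1.15 and -1.12). None of them was called after adjustment in either assay. Much of the gap lay in *Mael*+/- replicate 1, where pachytene RNA summed to 807 CPM. Replicates 2 and 3 had 301 and 319 CPM, against 248 to 282 in *Mael*-/-. Footprints summed to 944, 292 and 344 CPM in *Mael*+/- and 248 to 292 in *Mael*-/-. Summed RNA of the other marker lists overlapped between genotypes.

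The replication genes were well expressed in both assays. Their RNA levels ran from 2.68 (*Mcm9*) to 83.5 CPM per kilobase (*Pcna*), with a median of 32.2, and the median member stood above 83.8% of all 16905 genes with a length and RNA counts. In footprints the range was 9.19 (*Mcm9*) to 154 CPM per kilobase (*Rpa2*), with a median of 46.5 that stood above 77.4% of genes. Over the 6 libraries of both genotypes in one assay, the members had a median coefficient of variation of 7.47% in RNA and 8.77% in footprints. The highest values were 23.1% and 23.0%, both of *Orc4*. Across the 46 genes the levels of the assays rose together (Pearson's r = 0.874 on the log2 scale, Spearman's rho = 0.84, over genes that share libraries and depth, as a description only).

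**Figure D1:**
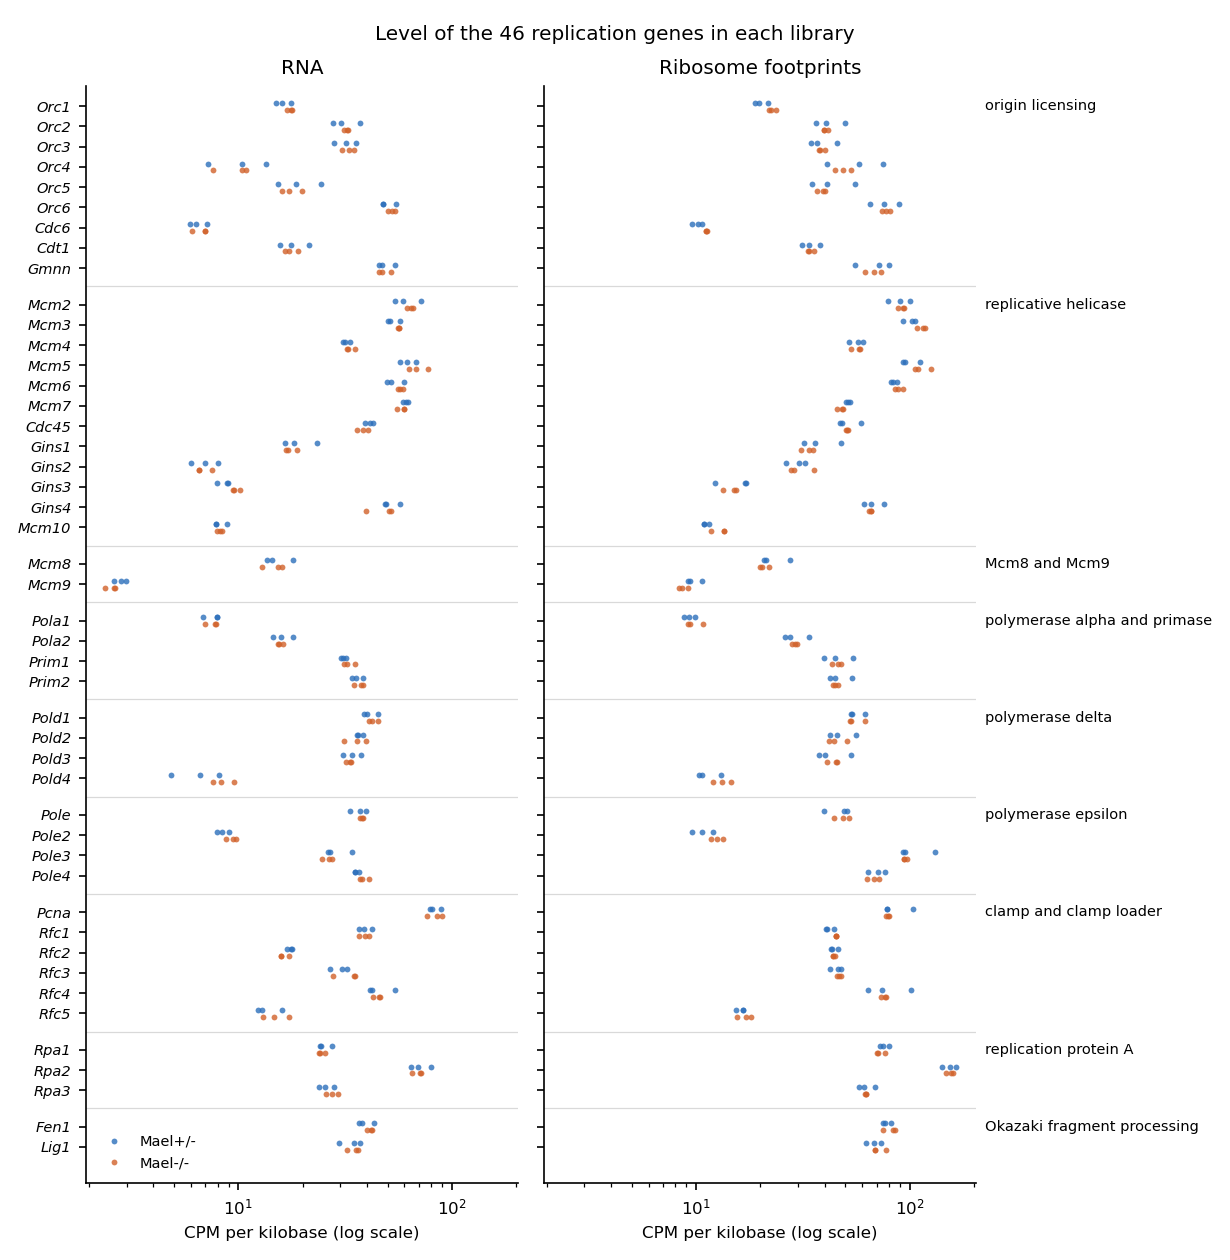
Levels of the 46 members in RNA (left) and footprints (right), in CPM per kilobase of mRNA or of coding sequence on a log axis. Each point is 1 library, blue for *Mael*+/- and orange for *Mael*-/-, with genes grouped by role. The colours overlap in most rows, and genes of one complex can lie up to several fold apart.

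Subunits that work together in a fixed ratio were not at equal levels. Of the complexes measured, the 6 genes of the MCM ring lay closest, from 32.7 ± 1.48 (*Mcm4*) to 65.6 ± 6.89 CPM per kilobase (*Mcm5*) in RNA (mean ± SD, n = 6 libraries of both genotypes), a span of 2.01-fold that was 1.79 to 2.39-fold in single libraries. In footprints their span was 2.17-fold, from 49.4 ± 2.38 (*Mcm7*) to 107 ± 8.899 CPM per kilobase (*Mcm3*). The origin recognition complex spanned 5.12-fold in RNA, from 9.98 ± 2.31 (*Orc4*) to 51.1 ± 3.16 CPM per kilobase (*Orc6*), and 3.60-fold in footprints, where *Orc1* was lowest at 21.4 ± 1.81. In GINS, *Gins2* had 6.95 ± 0.74 and *Gins4* 49.5 ± 5.702 RNA CPM per kilobase, 7.13-fold apart. Footprints of GINS spanned 4.43-fold, with *Gins3* lowest. Polymerase epsilon showed the widest span in footprints, 8.67-fold, between its accessory subunit *Pole2* (11.6 ± 1.35) and the histone-fold subunit *Pole3* (101 ± 14.8 CPM per kilobase). Polymerase delta spanned 5.60-fold in RNA, from the small subunit *Pold4* (7.51 ± 1.62) to the catalytic subunit *Pold1* (42.1 ± 2.702). The neighbours in the order are not all separable: among the MCM ring, *Mcm5* and *Mcm2* (62.9 ± 6.02) lay within 1 SD of each other in RNA, as did *Mcm3* (54.7 ± 2.89) and *Mcm6* (55.6 ± 3.97).

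*Rpa2*, the middle subunit of replication protein A, led the footprints. It reached 154 ± 8.59 CPM per kilobase in footprints against 70.2 ± 5.48 in RNA, and *Rpa1*, the large DNA-binding subunit, reached 74.2 ± 3.73 against 24.9 ± 1.43. *Pcna*, first in RNA with 83.5 ± 5.58 CPM per kilobase, was seventh of the members in footprints with 82.7 ± 10.1. At the other end stood *Mcm9*, a helicase of recombination and repair rather than of replication forks, with 2.68 ± 0.21 in RNA, and the loader *Cdc6*, with 6.58 ± 0.54. *Cdt1* and *Gmnn*, the loader and its inhibitor, had RNA levels of 17.9 ± 2.05 and 48.6 ± 3.596 CPM per kilobase, and footprint levels of 34.4 ± 2.34 and 68.5 ± 8.695. These per-kilobase levels rest on the union of exons in the GENCODE M21 annotation, so that a long exon the testis does not use lowers the value of its gene.

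The remaining helicase and polymerase genes were as uneven. *Cdc45*, which joins the MCM ring at firing, had 39.6 ± 2.36 CPM per kilobase in RNA and 51.2 ± 4.26 in footprints, and the activator *Mcm10* had 8.198 ± 0.38 and 12.03 ± 1.21. *Pola1*, the catalytic subunit of polymerase alpha, stood at 7.55 ± 0.52 and 9.54 ± 0.69. Its accessory subunit *Pola2* was higher, at 29.1 ± 2.58 in footprints. Both primase genes were well above *Pola1*, with 32.02 ± 1.72 in RNA for *Prim1* and 36.4 ± 1.83 for *Prim2*.

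The clamp loader spanned 3.15-fold in RNA and 4.69-fold in footprints. *Rfc4* was its highest gene in both assays, with 45.3 ± 4.61 and 77.7 ± 12.5 CPM per kilobase, and *Rfc5* the lowest, with 14.4 ± 1.99 and 16.6 ± 1.002. *Rfc1*, the large subunit specific to the replicative loader, had 39.2 ± 2.19 and 43.5 ± 2.28. The Okazaki enzymes had 40.4 ± 2.65 (*Fen1*) and 34.3 ± 2.901 (*Lig1*) in RNA, and 79.5 ± 4.66 and 69.9 ± 5.16 in footprints.

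One extract stood apart before any comparison of genotypes. In *Mael*+/- extract 1, markers of pachytene spermatocytes summed to 807 CPM in RNA, against 301 to 319 CPM in the other *Mael*+/- libraries and 248 to 282 CPM in *Mael*-/-, and the footprints gave 944 CPM against 292 to 344 and 248 to 292. All 10 markers had counts, 8 of them in every library. Markers of early meiotic prophase were also highest there, with 1966 CPM in RNA against 642 to 971 CPM in the other 5 libraries. Of the 46 members, 13 were highest in this extract in both assays (28.3%), compared with 18.5% of the 13448 genes tested in both. In RNA alone the median member lay at -0.0055 from its mean over the libraries on the log2 scale there, 15 of 46 were highest (28.0% of all genes) and 11 lowest (26.6%). *Orc4*, a subunit of the origin recognition complex (chr2:48902824-48952902 in GRCm38), had 63.4, 33.9 and 49.1 RNA CPM in the *Mael*+/- libraries and 50.9, 48.7 and 35.8 in *Mael*-/-, and 101, 54.96 and 77.3 against 64.8, 59.7 and 70.8 footprint CPM. Extract 1 was therefore 1.45-fold and 1.54-fold above the mean of the other 5 extracts. *Orc5*, its neighbour in the complex, was 1.41-fold and 1.45-fold above, and *Gins1* 1.34-fold and 1.42-fold. The other members highest in both assays were *Orc2*, *Orc3*, *Orc6*, *Mcm8*, *Mcm9*, *Prim2*, *Pold3*, *Pole3*, *Rfc2* and the clamp loader subunit *Rfc4*. By role, the median licensing gene was 0.11 above its mean over the 6 RNA libraries there on the log2 scale and 0.23 above it in footprints, against -0.027 and 0.083 for the replicative helicase. In the footprints of *Mael*+/- extract 2 the median member was lowest of all libraries, at -0.10, and 24 of 46 members had their lowest footprint value there (23.7% of all genes did). The RNA of the same extract went the other way, with the highest member median of the RNA libraries, 0.055, and 18 members at their highest (20.0% of all genes). The part of the meiotic markers in these values was not tested, and in whole testis fewer cells of a type and less RNA per cell cannot be told apart.

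**Figure D2:**
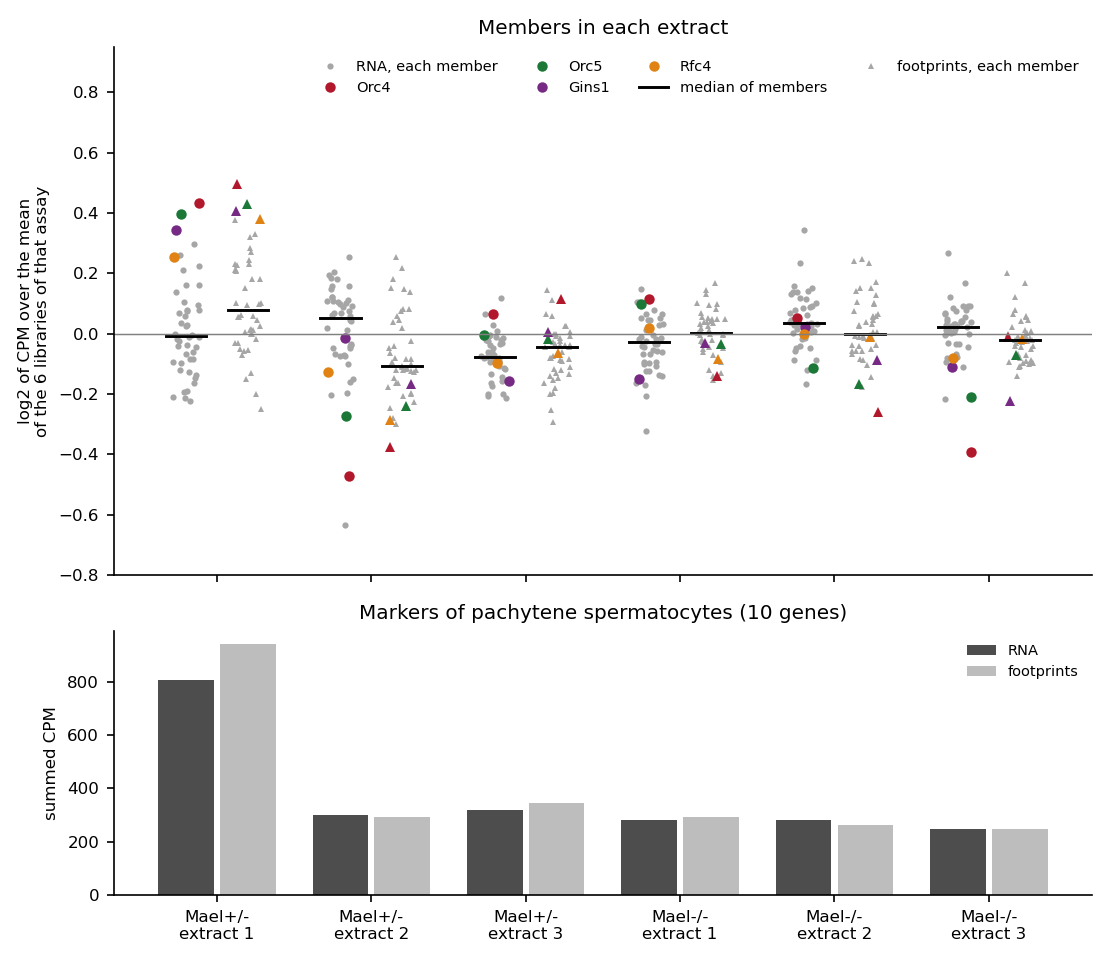
Top, log2 ratio of each member's CPM to its mean over the 6 libraries of an assay, by extract, with circles for RNA, triangles for footprints and black bars for the median member. Bottom, summed CPM of 10 pachytene markers, which reached 807 and 944 in *Mael*+/- extract 1, where *Orc4*, *Orc5*, *Gins1* and *Rfc4* (coloured) were also at their highest.

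The first question was whether loss of *Mael* changed the RNA of the replication machinery. No member was called: 0 of 46 passed an adjusted p of 0.05 in edgeR's quasi-likelihood test with Benjamini-Hochberg adjustment, against a background of 17 of 14685 genes (0.116%). None reached an unadjusted p of 0.05 either, where 793 of all genes (5.4%) did, and DESeq2 called none of them. The members' log2 differences (*Mael*-/- minus *Mael*+/-) ran from -0.15 (*Gins1*) to 0.38 (*Pold4*), with 25 above and 21 below 0. Their median was 0.014, and that of all genes was -0.0013. For 43 members the 95% confidence interval of the difference lay within 0.5 log2 units of 0, as for 65.0% of all genes, and for all 46 it lay within 1. The intervals of the 3 others, *Orc4*, *Orc5* and *Pold4*, reached -0.59, -0.50 and 0.83. The groups did not overlap for 2 members, *Gins3* and *Pole4*, both higher in *Mael*-/-, where 10.3% of all genes did not overlap.

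**Figure D3:**
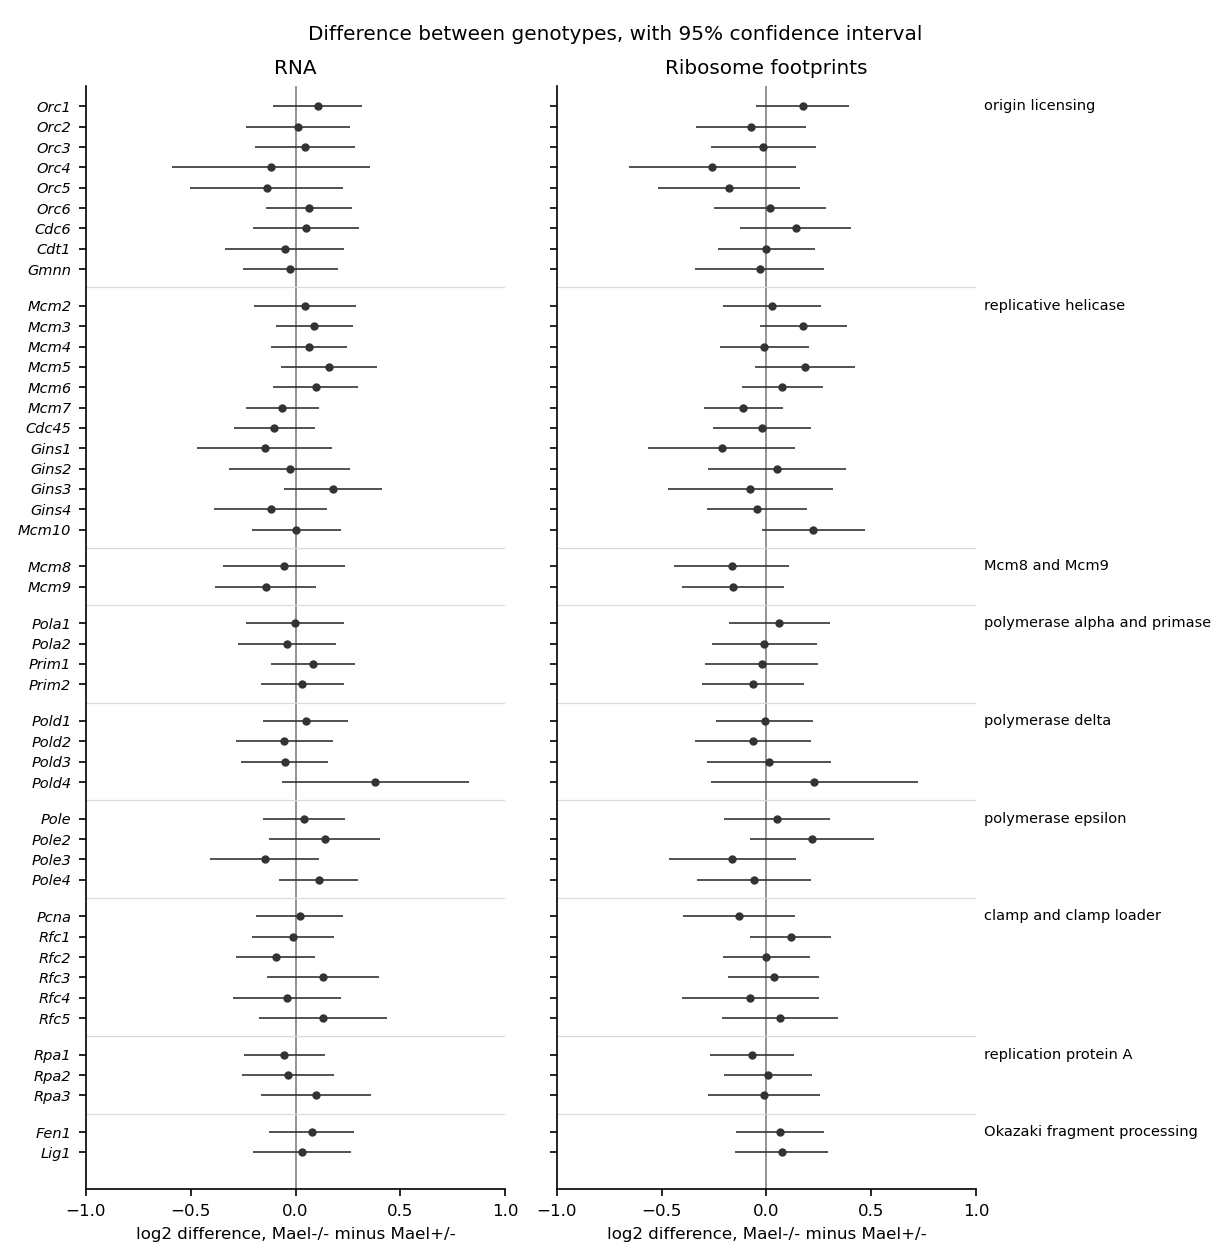
Log2 difference between genotypes (*Mael*-/- minus *Mael*+/-) of each member in RNA (left) and footprints (right), with 95% confidence intervals over 3 libraries a group. All intervals include 0; *Pold4* and *Orc4* have the widest.

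In the licensing group, *Orc6* had the highest RNA level per kilobase. It measured 87.6, 76.04 and 75.6 CPM in the *Mael*+/- libraries and 80.5, 83.4 and 86.02 CPM in *Mael*-/-, with overlapping groups (log2 difference 0.064 ± 0.092, SE). *Orc5* had the largest difference of the group, -0.14 ± 0.16, from 51.5, 32.3 and 39.01 against 41.8, 36.1 and 33.8 CPM, and its high value was that of *Mael*+/- extract 1. Without that library the difference of *Orc5* was 0.057, and that of *Orc4* moved from -0.12 to 0.11. The loaders *Cdc6* (0.049 ± 0.11) and *Cdt1* (-0.051 ± 0.13) and the inhibitor *Gmnn* (-0.024 ± 0.10) all lay within 1 SE of 0.

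Among the helicase genes, *Mcm5* was the most abundant per kilobase, with 212, 234 and 197 CPM in *Mael*+/- and 218, 267 and 234 CPM in *Mael*-/-. Its log2 difference of 0.16 ± 0.10 was the largest of the MCM ring, whose other members ran from -0.062 (*Mcm7*) to 0.095 (*Mcm6*). *Gins3* (chr8:95633559-95645059), a GINS subunit, was the member of this role that differed most: 24.1, 24.1 and 21.6 CPM in *Mael*+/- lay below all 3 *Mael*-/- libraries (25.7, 27.6 and 25.8 CPM), a difference of 0.18 ± 0.10 (unadjusted p = 0.12, adjusted p = 0.9781). The other GINS genes were not higher, with -0.15 for *Gins1*, -0.029 for *Gins2* and -0.12 for *Gins4*. Of the relatives outside the ring, *Mcm8* measured 62.8, 49.9 and 47.4 against 53.5, 55.7 and 45.1 CPM and *Mcm9* 27.3, 25.7 and 23.8 against 24.02, 21.8 and 23.8 CPM. The log2 difference was -0.054 ± 0.13 for *Mcm8* and -0.14 ± 0.11 for *Mcm9*, both of which were highest in *Mael*+/- extract 1.

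The RNA differences of the polymerase genes ran from -0.15 to 0.14, apart from *Pold4*. *Prim2*, the large primase subunit, had 75.7, 70.2 and 67.5 CPM in *Mael*+/- and 68.6, 74.2 and 75.4 CPM in *Mael*-/-. The catalytic primase subunit *Prim1* had 50.7, 48.4 and 49.2 and 49.7, 56.00 and 51.5 CPM (0.085 ± 0.090), the largest difference of polymerase alpha and primase. For *Pold1*, the catalytic subunit of polymerase delta, 134, 157 and 138 CPM stood against 141, 156 and 147 CPM (0.049 ± 0.091), and all *Mael*-/- values lay inside the *Mael*+/- range. *Pold4* (chr19:4231893-4233634), the smallest subunit of polymerase delta and the one removed from it after DNA damage, had 7.67, 5.63 and 9.48 against 9.68, 11.1 and 8.897 CPM. Its difference of 0.38 ± 0.20 was the largest of all members (unadjusted p = 0.086, adjusted p = 0.9556), and the groups overlapped. *Pold4* had the lowest mean RNA CPM of all members (8.74), and its difference moved between 0.20 and 0.57 when 1 library was left out. The low extreme came without *Mael*+/- replicate 2 and the high one without *Mael*+/- replicate 3, where the unadjusted p was 0.018 and the adjusted p 0.40. *Pole*, the catalytic subunit of polymerase epsilon, had 277, 296 and 248 and 284, 283 and 277 CPM (0.040 ± 0.088). *Pole3*, a histone-fold subunit, had 61.3, 48.6 and 47.6 and 44.4, 47.97 and 49.8 CPM (-0.15 ± 0.12), and its difference was -0.021 without *Mael*+/- extract 1.

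At the fork, *Pcna* (chr2:132249286-132253180) had 135, 123 and 120.0 CPM in *Mael*+/- and 116, 137 and 129 CPM in *Mael*-/- (0.019 ± 0.093). *Rfc3*, a clamp loader subunit, differed most in its role, by 0.13 ± 0.12, from 35.5, 42.5 and 40.1 against 36.8, 45.99 and 46.3 CPM. The groups overlapped, with the lowest library in *Mael*+/- and the highest in *Mael*-/-. *Rpa2* had 116, 144 and 126 against 118, 129 and 130.1 CPM, and the small subunit *Rpa3* 18.7, 17.05 and 16.01 against 18.4, 19.6 and 17.3 CPM, with differences of -0.035 ± 0.10 and 0.10 ± 0.12. *Fen1*, the flap endonuclease, had 88.8, 105 and 91.7 and 97.1, 101 and 103 CPM (0.076 ± 0.091), and the ligase *Lig1* 123, 131 and 104 and 125, 127 and 113 CPM (0.029 ± 0.10).

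Footprints were compared next, as a measure of the ribosomes on these mRNAs. Again 0 of 46 members were called, against 8 of 13500 genes (0.0593%), and none reached an unadjusted p of 0.05, where 585 genes (4.33%) did. DESeq2 called none. The log2 differences ran from -0.26 ± 0.18 (*Orc4*) to 0.23 ± 0.22 (*Pold4*), with a median of -0.0084 over the members and -0.0086 over all genes, and 41 of the 46 intervals lay within 0.5 of 0 (64.0% of all genes). For 7 members the groups did not overlap (15.2%, against 9.1% of all genes): *Orc1*, *Cdc6*, *Mcm3*, *Mcm10* and *Rfc1* were above, and *Mcm7* and *Mcm9* below, in *Mael*-/-. *Mcm10*, a helicase activator, had 30.7, 28.8 and 28.97 footprint CPM in *Mael*+/- and 35.9, 35.9 and 31.3 in *Mael*-/- (0.22 ± 0.11, unadjusted p = 0.071, adjusted p = 0.9984), the smallest p of any member. *Mcm3*, a subunit of the ring, had 258, 228 and 250.4 against 289, 280.1 and 263 CPM (0.18 ± 0.094). *Mcm9* had 42.2, 36.99 and 36.3 CPM in *Mael*+/- and 34.2, 36.2 and 33.1 in *Mael*-/-, which gave -0.16 ± 0.11 and an adjusted p of 0.9984.

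The differences of the other 4 genes whose footprints did not overlap ran from -0.11 to 0.17. *Orc1*, the largest origin recognition subunit, had 54.9, 49.7 and 47.6 CPM in *Mael*+/- and 55.1, 59.96 and 56.5 CPM in *Mael*-/- (0.17 ± 0.10). The loader *Cdc6* had 18.8, 17.98 and 16.97 against 19.9, 19.7 and 19.6 CPM (0.14 ± 0.12), and *Rfc1* 151, 139 and 141 against 156, 156 and 156 CPM (0.12 ± 0.087). In the other direction *Mcm7* had 111, 113 and 108 against 105, 104 and 98.7 CPM (-0.11 ± 0.086). In each of these 4 the gap between the groups was smaller than the range within *Mael*+/-. *Pole2*, an accessory subunit of polymerase epsilon, had a difference of 0.22 ± 0.13 with overlapping groups (18.99, 15.1 and 16.8 against 18.5, 19.8 and 21.1 CPM).

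Several footprint values turned on *Mael*+/- extract 1. *Pcna* had 80.8, 61.04 and 61.2 CPM in *Mael*+/-, the first of which was the highest, and 62.1, 60.8 and 62.5 CPM in *Mael*-/-. Its difference of -0.13 ± 0.12 became 0.014 without that library. Without it *Orc4* moved to -0.034, *Orc5* from -0.18 to 0.028, *Gins1* from -0.21 to -0.035, and *Rfc4* from -0.076 to 0.13. Then the median member was at 0.057, and 4 members (*Orc1*, *Mcm3*, *Mcm5* and *Pole2*, all higher in *Mael*-/-) reached an unadjusted p of 0.05, the smallest adjusted p among them being 0.69 (*Mcm5*). Without *Mael*+/- footprint replicate 2, the opposite was seen for *Orc4* and *Orc5*, at -0.45 and -0.31, with adjusted p-values of 0.50 and 0.79. Both sets were named after their values were seen. Of the members described for RNA, footprints were 134, 114 and 126 against 129, 120.1 and 127 CPM for *Rpa2*, 87.4, 93.1 and 85.2 against 97.2, 95.4 and 85.2 for *Fen1*, and 3.39, 4.27 and 3.51 against 4.31, 4.79 and 3.92 for *Pold4*, with overlapping groups in each case.

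Translation efficiency, the change of footprints beyond that of RNA, was tested with all 12 libraries in a single fit, as the term by which the genotype difference depends on the assay. This fit held no term for the extract, although RNA and footprint libraries with one number came from one extract. No gene was called (0 of 13448, 0%), and 53 genes (0.394%) and 0 of 46 members had an unadjusted p under 0.05. DESeq2 also called none. The members ran from -0.25 ± 0.19 (*Gins3*) to 0.22 ± 0.13 (*Mcm10*), with a median of -0.014, and 39 of 46 intervals lay within 0.5 of 0 (53.0% of all genes). With each extract as a term, 44 of 46 did (73.8% of all genes). The median standard error of the members was then 0.11 in place of 0.15, and again no gene was called. *Gins3*, whose RNA was higher in each *Mael*-/- library, had 11.2, 11.3 and 8.09 footprint CPM in *Mael*+/- and 9.92, 8.78 and 10.2 in *Mael*-/-, so the footprints overlapped where the RNA did not. The difference between the assays for *Gins3* did not pass the test (unadjusted p = 0.2, adjusted p = 1).

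Other genes that act with this machinery were not called either. A list of 56 genes (firing and fork factors, S phase chromatin, nucleotide supply, strand processing and loader variants, S phase regulators, and meiotic relatives of replication factors) had 0 calls in each of these comparisons, and none at an unadjusted p of 0.05. Their medians were -0.011, 0.0022 and 0.012, and their RNA differences ran from -0.20 ± 0.096 (*Uhrf1*, which recruits maintenance DNA methylation to new strands) to 0.25 ± 0.11 (*Top2a*, the topoisomerase of dividing cells), adjusted p = 0.94 and 0.92. These extremes were named after their values were seen. The 3 meiotic relatives, *Mcmdc2*, *Meiob* and *Spata22*, which serve recombination, summed to 116 RNA CPM in *Mael*+/- extract 1 against 38.0 to 71.0 CPM in the other libraries, so that they too were highest where the meiotic markers were.

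The widest contrast in the data that the rule on symbols did not use was that of footprints against RNA over both genotypes, with values relative to the median gene. Without a term for the extract, it called 36 of 46 members. Of these 20 were higher in footprints and 16 lower, in a background where 34.2% of all genes were higher and 35.5% lower. The median member lay at 0.13 on the log2 scale. With each extract as a term 41 were called, the additions being *Mcm5*, *Cdc45*, *Gins1*, *Mcm8* and *Pola1*, all higher, while the share of all genes called went from 69.7% to 79.2%. Because RNA was counted over the whole mRNA and footprints over coding sequence alone, a gene with long untranslated ends has a lower value by construction. The coding share of the members ran from 14.2% (*Gins2*) to 96.0% (*Pold1*), with a median of 59.6% against 49.8% for all genes. Per kilobase, 36 members were again called, but 8 were higher and 28 lower, in a background of 37.3% and 35.5%, and the median member lay at -0.33. Both values are therefore given for the members named below.

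The lowest members as counted were *Pole4*, *Rfc5* and *Gins3*. *Pole4* (chr6:82616532-82653043), a histone-fold subunit of polymerase epsilon, had 75.4, 72.3 and 71.98 and 75.9, 83.9 and 77.2 RNA CPM and 28.2, 26.3 and 23.4 and 23.2, 26.4 and 25.03 footprint CPM. Its log2 ratio of -1.50 ± 0.066 (adjusted p = 8.4e-11) became -0.054 ± 0.065 per kilobase, since 18.01% of its exonic length is coding. *Rfc5* (chr5:117379145-117389023), a clamp loader subunit, had 39.96, 52.01 and 41.7 and 42.3, 47.6 and 56.1 RNA CPM against 18.03, 16.8 and 18.04 and 19.8, 16.96 and 18.6 footprint CPM. It was at -1.29 ± 0.093 as counted and at -0.74 ± 0.092 per kilobase, low on both scales. *Gins3* followed, at -1.24 ± 0.095 and -0.23 ± 0.094.

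The highest members as counted were *Lig1*, *Mcm3* and *Rfc4*. *Lig1* had 191, 206 and 174 and 192, 217 and 192 footprint CPM, each above its RNA in the same extract, with a log2 ratio of 0.78 ± 0.073 (adjusted p = 2.7e-07). Per kilobase it lay at 0.082 ± 0.072, near the median gene. *Mcm3* went from 0.73 ± 0.057 to 0.025 ± 0.057. *Rfc4* had 70.7, 54.2 and 55.4 and 59.97, 59.3 and 56.01 RNA CPM against 118, 74.6 and 87.00 and 85.8, 90.3 and 89.9 footprint CPM, and went from 0.70 ± 0.10 to -0.17 ± 0.10, with adjusted p = 0.15 on the second scale.

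**Figure D4:**
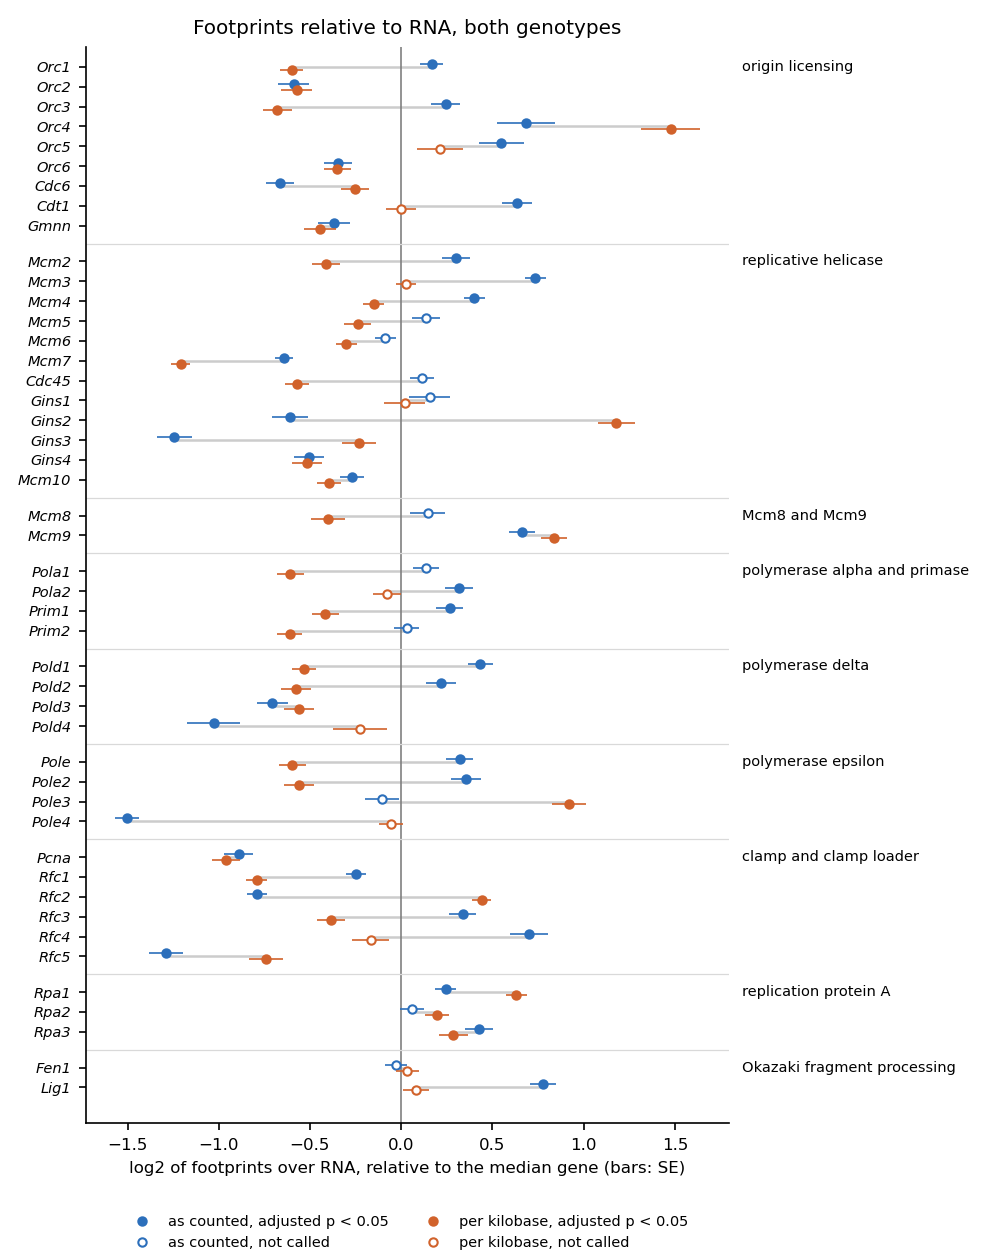
Log2 ratio of footprints to RNA for each member relative to the median gene, over 12 libraries, as counted (blue) and per kilobase (orange). Filled points had an adjusted p under 0.05 and bars are standard errors. *Pcna*, *Rfc5* and *Mcm7* lie left of 0 on both scales and *Orc4*, *Mcm9*, *Rpa1* and *Rpa3* lie right of it.

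Calls in the same direction on both scales were found for 16 members, 12 lower and 4 higher. Of all genes, 69.7% were called as counted and 72.8% per kilobase. The share of all genes called on both scales, in the same or in opposite directions, was not computed. The counts of members given here therefore have no background to be set against. *Pcna* was among the lower ones, at -0.89 ± 0.078 as counted and -0.96 ± 0.077 per kilobase. *Mcm7*, the lowest member per kilobase, was at -0.64 ± 0.051 and -1.21 ± 0.051, whereas the other genes of the MCM ring lay between -0.41 and 0.025 per kilobase. The others that were lower on both scales were *Orc2*, *Orc6*, *Cdc6*, *Gmnn*, *Gins3*, *Gins4*, *Mcm10*, *Pold3*, *Rfc1* and *Rfc5*. The 4 that were higher on both were *Orc4* (0.68 ± 0.16 and 1.48 ± 0.16), *Mcm9* (0.66 ± 0.070 and 0.84 ± 0.070), *Rpa1* (0.24 ± 0.057 and 0.63 ± 0.057) and *Rpa3* (0.43 ± 0.078 and 0.29 ± 0.078). The scales disagreed in direction for 12 members called on both, of which 10 were higher as counted and lower per kilobase. The catalytic subunits *Pole* and *Pold1* are examples, at 0.32 and 0.43 as counted and -0.60 and -0.53 per kilobase.

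Of all genes, 34.2% were called higher and 35.5% lower as counted, and 37.3% and 35.5% per kilobase. The counts by role were not tested against these shares. By role, the clamp and its loader had 2 genes higher and 4 lower of 6 as counted, and 1 and 4 per kilobase. *Pcna*, *Rfc1* and *Rfc5* were lower on both scales, *Rfc3* and *Rfc4* were higher as counted, and *Rfc2* went from -0.79 to 0.44. All 3 genes of replication protein A were higher per kilobase and 2 as counted. The origin recognition genes with *Cdc6*, *Cdt1* and *Gmnn* were divided as counted (5 higher and 4 lower of 9) and mostly lower per kilobase (1 and 6). Polymerase alpha with primase had 2 of 4 higher as counted and 3 of 4 lower per kilobase. As counted, the *Mael*+/- libraries alone gave 10 members higher and 14 lower, where 50.5% of all genes were called, and the *Mael*-/- libraries alone gave 19 and 15, where 68.8% were. The difference in these counts was not tested as such, and the test of translation efficiency called no member.

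The list of 56 other replication genes gave 35 calls in this contrast, 19 higher and 16 lower, where 69.7% of all genes were called, with a median of 0.060. These values are as counted, and no per-kilobase values were computed for this list.

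Some members share exons or sequence with other genes. In 14 members exons of a gene on the opposite strand overlap, most of all *Fen1* (78.8% of its exonic bases, with Gm10143) and *Gins2* (70.7%, with *Gse1*). The RNA kit keeps strand, but whether the counting used it is not given in the sources used here, so the RNA of these pairs is uncertain. *Pold4* and *Pole2* overlap an annotated gene on the same strand over 286 and 245 exonic bases. *Pcna* has processed copies in the genome, *Pcna*-ps1 and *Pcna*-ps2, which have no row of their own in the table.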

How the data were processed

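Testes of C57BL/6 mice at postnatal day 16 were compared between *Mael*+/- and *Mael*-/-, with 3 biological replicates per genotype and assay. The authors homogenised testes with cycloheximide, made stranded, rRNA-depleted libraries of total RNA, and digested another aliquot of each extract with micrococcal nuclease for footprints. Per the submitters' processing notes and methods, reads of ribosomal DNA were removed with Bowtie 1.2.2, the rest aligned to mm10 with STAR 2.6.0c and counted with featureCounts (Subread 1.6.4), over the entire mRNA for RNA and coding sequence alone for footprints. The deposited table holds the authors' raw counts, without normalization, for genes and 5138235 repeat copies, which were not used. Whether duplicates were collapsed by the linker's molecular identifier, and the annotation counted, are not given in the sources used here, so intervals and errors describe the deposited counts. The deposited DESeq2 tables hold the authors' own fold changes and p-values and were not used.

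Members and gene lists were chosen with earlier results of these data known. Genes were tested on their counts in R 4.3.3 by edgeR 4.0.16 (glmQLFit and glmQLFTest, TMM within each assay, filterByExpr, Benjamini-Hochberg over all genes tested). The code was first run on simulated counts with no shared extract effect and with changes larger than any genotype difference of a member. That run therefore does not bear on differences of the size described here. All 46 members passed the filter. Genotypes were compared within RNA and within footprints over 6 libraries, translation efficiency as their interaction over 12, and footprints against RNA as the mean over groups, centred on the median gene. Unless stated otherwise, the fits over 12 libraries had no term for the extract and so ignored this pairing of libraries. RNA and footprint libraries with one number came from one extract, and their deviations from group means correlated in all 6 extracts (r = 0.24 to 0.77 over 13448 genes). Alternatives were DESeq2 1.42.0, limma 3.58.1 voom with quality weights, RLE size factors, other filters, a replicate block, a fold threshold, lengths (GENCODE M21) and leaving out each replicate. Full values were given per role for the member highest in RNA per kilobase and the one with the largest RNA difference, and for the 3 highest and 3 lowest in footprints against RNA. Total gene counts set the depth given in the report.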

Additional observations from a re-analysis of the deposited data

How the results depend on the processing

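No member was called in RNA, footprints or translation efficiency under any of the 35 alternatives, over 1608 refitted member values, the smallest adjusted p being 0.40. The count of all genes called in RNA (17) was 66 with DESeq2, 4 with a mean of at least 50 counts, 50 with the replicate number as a block, 36 with limma voom, and 2 to 64 when 1 replicate was left out, 64 being without *Mael*+/- replicate 1. In footprints (8) it was 26, 1 and 23 under the first 3, and 2 to 17 when 1 replicate was left out, 17 being without *Mael*+/- replicate 1. The labels do not say whether the replicate numbers pair the genotypes, and these data do not settle it. Between genotypes, libraries with one number had correlations of -0.0078 to 0.22, with 3 of 6 RNA and 4 of 6 footprint samples correlating best with their own number. The replicate block called no member. The median member in footprints ran from -0.038 to 0.057 when 1 replicate was left out. Of 46 members, 45 passed the filter on a mean of 50 footprint counts, *Pold4* being lost. In footprints against RNA, leaving out a replicate gave 33 to 35 members called (36 with all), the losses being among *Orc1*, *Orc3* and *Pold2*. Of all genes, 62.9 to 70.8% were called in these fits (69.7% with all). A test against a 1.5-fold difference called 8 of 46 members and 3566 genes (26.5%). With *Mael*+/- or *Mael*-/- libraries alone, the test against no difference called 24 and 34 members, and 50.5% and 68.8% of all genes. Per kilobase the median member was at -0.33 and members called as counted changed sign: *Orc1* -0.60, *Orc3* -0.68, *Cdt1* -0.0022, *Mcm2* -0.41, *Mcm4* -0.15, *Gins2* 1.18, *Pola2* -0.078, *Prim1* -0.42, *Pold1* -0.53, *Pold2* -0.58, *Pole* -0.60, *Pole2* -0.56, *Rfc2* 0.44, *Rfc3* -0.39 and *Rfc4* -0.17, by construction of the scale. Of these, *Cdt1*, *Pola2* and *Rfc4* were not called per kilobase. With 3 replicates a group, standard errors of 0.079 to 0.21 in RNA limit what could be seen for a member, most for *Pold4* and *Orc4*.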
